A study of Mus musculus with 2 samples.

Results

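The interferon-induced transmembrane (IFITM) family was followed through the immune cells of mouse liver, with and without a colon tumor growing in that organ. The members were taken by symbol, Ifitm1, Ifitm2, Ifitm3 and Ifitm6, and make up 4 of the 28692 genes in the deposited matrices. The family was chosen by the measured Ifitm1 level, known to be far higher in type 2 conventional dendritic cells (cDC2) of the tumor library. The cDC2 values are therefore a description and support nothing. Mononuclear cells of C57BL/6 livers were profiled by droplet single-cell RNA sequencing on day 14, with 1 library for each of the 2 groups and 3 mice pooled in each. In the MC38 group, the spleen was injected with 500000 MC38 cells, from a colon adenocarcinoma line of the mouse, and then removed. The control group had received phosphate-buffered saline by the same route and is labelled as having no tumor. A subcutaneous dose of 3000000 MC38 cells appears in a protocol text that is identical for both groups, and the control title carries the letters SC with no explanation. The sources used here do not say if the control mice bore a subcutaneous tumor or underwent splenectomy.

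IFITM proteins are small membrane proteins that hinder the fusion of enveloped viruses with host membranes. Ifitm3 acts mainly in endosomes, human IFITM1 sits largely at the cell surface, and mouse Ifitm6 is known as a myeloid member of the family. Their transcription is known to answer to type I and type II interferons, in part through the interferon-stimulated response element (ISRE), a promoter sequence bound by interferon regulatory factors. The members differ in their roles and in the cells that carry them, so the locus is described first and then the members across the cell classes.

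The 4 genes lie within 63.09 kb of mouse chromosome 7 in build GRCm38.p6. Ifitm2 (ENSMUSG00000060591) runs from 140954837 to 140955987 on the minus strand and has 1 annotated transcript of 2 exons. Ifitm1 (ENSMUSG00000025491) runs from 140967221 to 140969825 on the plus strand, with 3 transcripts. Ifitm3 (ENSMUSG00000025492) runs from 141009586 to 141010770 on the minus strand and Ifitm6 (ENSMUSG00000059108) from 141015699 to 141017924, also on the minus strand. All 4 are annotated as protein coding. The RefSeq promoter windows that follow, in build GRCm38.p6, are shown because the members differ in the ISRE core. Each is the 100 bases from 70 before the RefSeq start to 29 after it, counting the start as base 0, and capitals mark the core, GAAA repeated after any 2 bases, searched on both strands.
Ifitm1, chr7:140968006-140968105, plus strand: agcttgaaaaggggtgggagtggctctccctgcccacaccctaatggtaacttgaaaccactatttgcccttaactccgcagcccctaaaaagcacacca
Ifitm2, chr7:140955932-140956031, minus strand: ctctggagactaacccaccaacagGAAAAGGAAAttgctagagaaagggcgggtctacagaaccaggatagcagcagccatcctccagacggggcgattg
Ifitm3, chr7:141010715-141010814, minus strand: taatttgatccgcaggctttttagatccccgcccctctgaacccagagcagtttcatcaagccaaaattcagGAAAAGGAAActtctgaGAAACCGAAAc
Ifitm6, chr7:141016863-141016962, minus strand: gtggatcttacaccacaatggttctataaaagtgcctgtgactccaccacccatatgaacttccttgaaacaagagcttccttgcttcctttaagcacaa
The 300-base promoter of Ifitm2 held the core 1 time, at bases -46 to -37, and that of Ifitm3 held it 2 times, at bases 2 to 11 and 19 to 28. Those of Ifitm1 and Ifitm6 held no match, which says only that these letters are not in this window. Further annotated starts, at 140967221 for Ifitm1 and at 141017558 and 141017924 for Ifitm6, lie outside the windows searched. The core was present in 3.44% of the 32851 RefSeq mouse promoters of the same length. The palindromic gamma-activated site TTCNNNGAA, present in 8.30% of promoters, was found in those of Ifitm3 and Ifitm6. In Ifitm3 it lies at bases 13 to 21 and overlaps the downstream ISRE core.

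Counts of near-identical genes are uncertain where reads could belong to either. Of the 50-base windows of the Ifitm2 transcript, 48.5% also occur in another gene. Gm45717, which overlaps Ifitm2 and is not among the counted genes, holds 36.1% of the Ifitm2 windows. The share was 10.0% for Ifitm3, 5.02% for Ifitm1 and 0 for Ifitm6. Ifitm2 and Ifitm3 transcripts were 79.0% identical over the aligned bases, with a longest shared run of 69 bases. The sources used here give neither the read length nor the handling of shared reads.

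The control library held 14258 barcodes and 91617457 unique molecular identifiers (UMIs, counts of captured RNA molecules), and the MC38 library 19822 and 114421875. RNA quality differed between them: the mitochondrial share exceeded 10% of UMIs in 74.8% of barcodes of the control and 33.3% of the MC38 library, and these were left out. This and other filters left 3453 and 11973 cells. The libraries shared 63 cell barcodes, 8 of them among the kept cells. Cells were sorted into 18 classes by 8 marker genes each, and 10 classes with at least 50 cells in both libraries were compared. The others, which include neutrophil-like, macrophage-like and mature dendritic-like cells, are given as values. With 1 library per group there is no test between groups, and all intervals are 95% intervals that cover counting error only. Levels are counts per 1000000 UMIs of the class (CPM), and a fold is called when it is at least 2 with an interval that leaves out no difference, among genes with at least 10 UMIs.

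The family was spread unevenly over the classes, as the plot of levels by class shows. Over all kept cells there were 187257 UMIs of Ifitm3, 85489 of Ifitm2, 35292 of Ifitm1 and 18429 of Ifitm6. Ifitm2 and Ifitm3 were found in nearly every myeloid class, Ifitm6 mostly in neutrophil-like cells, monocytes and cDC2-like cells, and Ifitm1 above all in mast cell or basophil-like cells. Levels of the members in B cell-like, NK or ILC1-like and plasmacytoid dendritic (pDC-like) cells were low in both libraries. Ifitm1 lay there at 64.4 CPM or less, Ifitm2 at 69.1 or less, Ifitm3 at 137 or less and Ifitm6 at 10.3 or less.

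**Figure D1:**
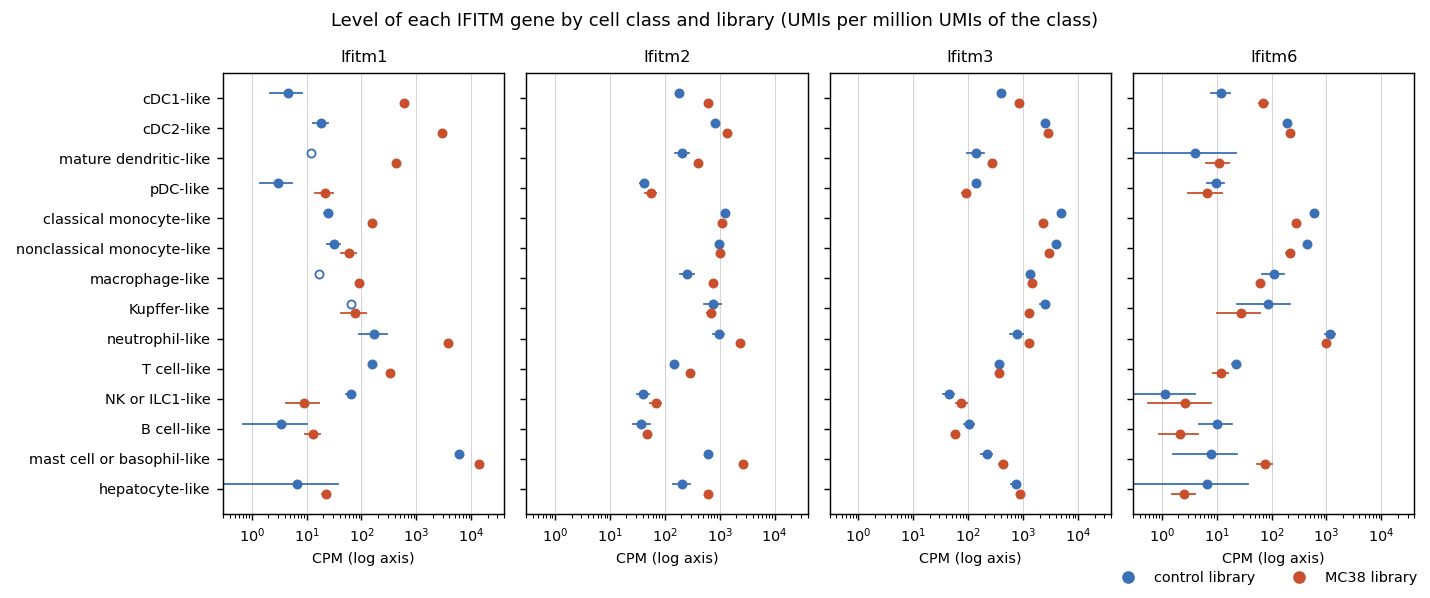
Level of each IFITM gene (x axis, CPM on a log axis) in 14 marker-gated classes (y axis) of the control (blue) and MC38 (red) libraries, with 95% Poisson intervals as lines and open circles at 3 counts of the class total where no UMI was found. The Ifitm1 points of the libraries lie far apart in cDC1-like and cDC2-like cells, at 4.58 and 601 CPM and at 18.0 and 2927 CPM, while those of Ifitm3 in cDC2-like cells lie at 2526 and 2815 CPM.

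In number of calls, the classes differed in which members moved. In cDC1-like cells, 4 of 4 members were higher in the MC38 library, where 4.4% of the 10023 genes tested were. In mast cell or basophil-like cells 3 members were higher, against 4.82% of 6702 genes. In classical monocyte-like cells 1 member was higher, against 5.33% of 12703 genes, and 2 were lower, against 7.01%. In cDC2-like cells 1 member was higher, against 5.23% of 10260 genes, and it is the member that chose the family, so nothing is read from it. In pDC-like cells 1 was higher (2.72% of genes), in T cell-like cells 1 higher (6.58%) and in hepatocyte-like cells 1 higher (2.36%) and 0 lower (5.1%). In nonclassical monocyte-like cells 0 were higher (4.06%) and 1 lower (5.2%), and in NK or ILC1-like cells 0 higher (3.11%) and 1 lower (2.58%). In B cell-like cells 1 was higher (2.95%) and 1 lower (3.2%), each on under 50 UMIs. By gene, Ifitm1 was higher in 7 of the 10 classes and lower in 1, Ifitm2 higher in 3 and lower in none. The 7 for Ifitm1 include the cDC2-like class, whose value chose the family. They also include T cell-like and pDC-like cells, where the fold depended on the processing, as given below. The lower Ifitm1 call, in NK or ILC1-like cells, rests on 1 cell with 108 of the 114 control UMIs. Ifitm3 was higher in 1 and lower in 1, and Ifitm6 higher in 2 and lower in 3. Each Ifitm3 call fell short of 2-fold in a subset of its class, as given below.

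**Figure D2:**
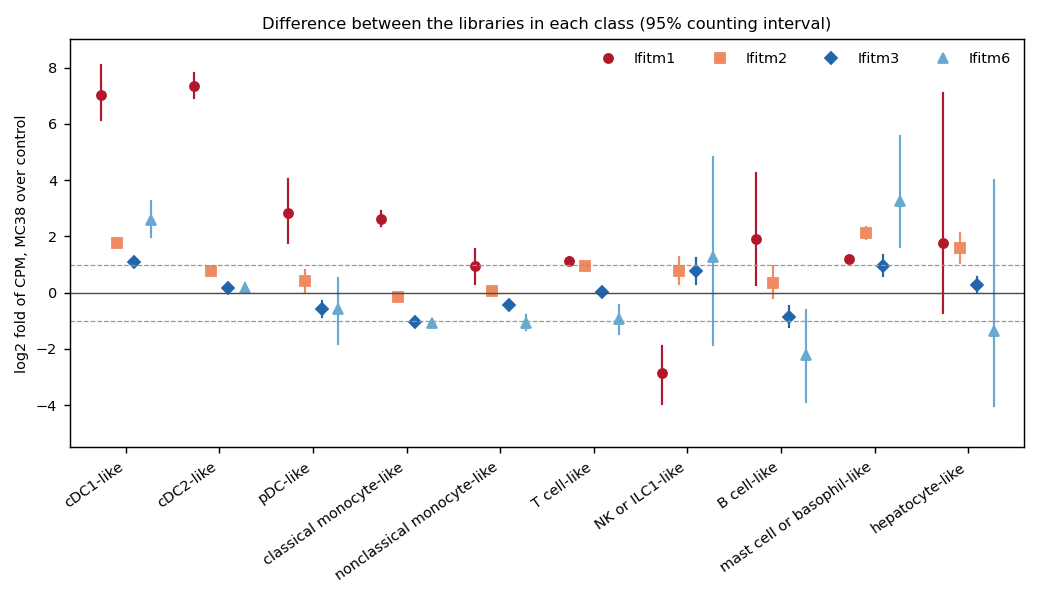
Log2 fold of CPM, MC38 over control (y axis), for the 4 genes in the 10 classes compared (x axis), with 95% counting intervals as lines, a solid line at no difference and dashed lines at a fold of 2 in each direction. Ifitm1 stands at 7.04 and 7.34 in the cDC1-like and cDC2-like classes, while Ifitm3 and Ifitm6 lie at -1.05 and -1.09 in classical monocyte-like cells.

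Ifitm1, the member known at the cell surface, went from 42 UMIs in 188 control cDC2-like cells, or 18.0 CPM (13.0 to 24.4), to 5880 UMIs in 168 MC38 cells, or 2927 CPM (2853 to 3003). These are the values that chose the family. The log2 fold was 7.34 (6.91 to 7.82), the first of the 10260 genes tested in that class when ranked by the interval end nearest no difference. A UMI of Ifitm1 was found in 11.2% (7.05 to 16.6) of control and 93.5% (88.6 to 96.7) of MC38 cells. The same shares in B cell-like cells, taken as the level of free RNA, were 1.65% and 2.59%, at median depths of 3505 and 2778 UMIs instead of 11218 and 11843. At an equal depth of 1000 UMIs per cell the cDC2 shares were 2.66% (0.869 to 6.10) of 188 and 78.4% (71.4 to 84.4) of 167 cells. B cell-like cells at that depth showed 0 of 179 cells, with an exact upper bound of 2.04%, and 0.762%. The intervals of the control cDC2-like and B cell-like shares overlapped at this depth. Over all UMIs their levels did not, at 18.0 CPM (13.0 to 24.4) and 3.42 CPM (0.705 to 9.99).

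The MC38 cDC2-like cells carried Ifitm1 broadly. The level per cell was 211 CPM at the 10th percentile, 2381 at the median and 6410 at the 90th, and the top 17 cells held 34.2% of the UMIs. In the control library the median cell was at 0 and 1 cell held 9 of the 42 UMIs. Without the cell of most UMIs in each library the log2 fold was 7.64 (7.15 to 8.18).

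**Figure D3:**
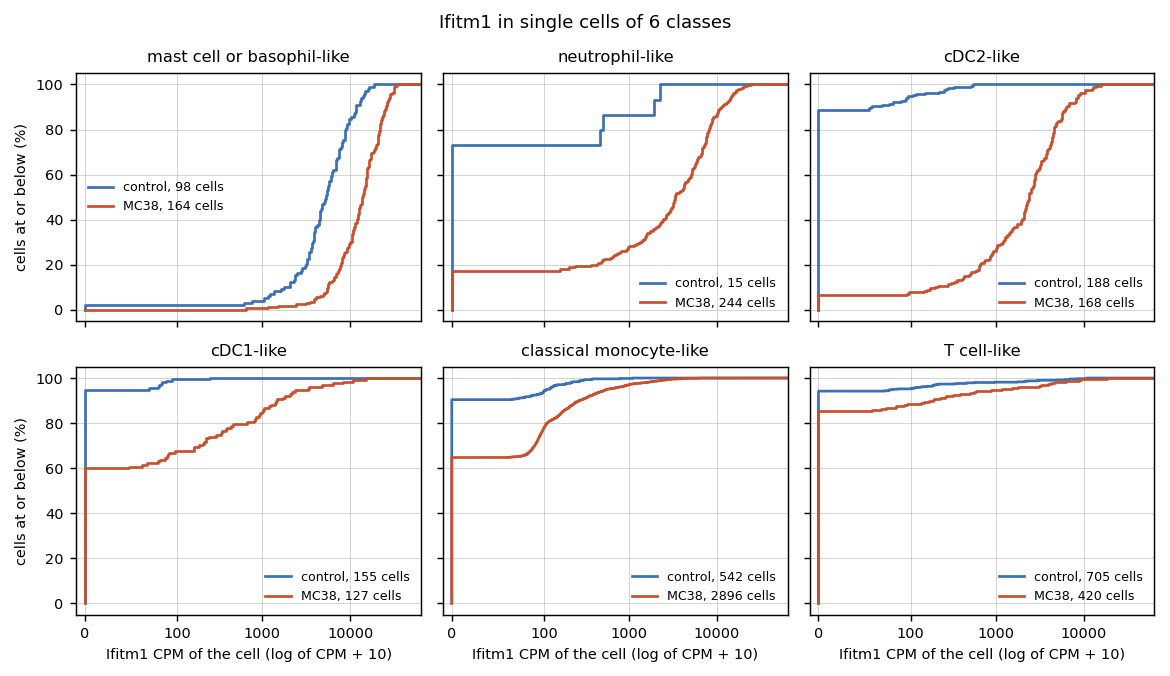
Cumulative share of cells (y axis, percent) by their Ifitm1 level (x axis, CPM of the cell on a log scale of CPM + 10) in 6 classes, control in blue and MC38 in red. The MC38 cDC2-like curve rises late, around a median of 2381 CPM, whereas 11.2% of control cDC2-like cells have a UMI, and in T cell-like cells both curves start high because most cells have none.

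The gate for cDC2-like cells was checked against other markers. The 8 cDC2 markers summed to 2472 CPM in control cells and 2515 CPM in MC38 cells. Their makeup differed: Cd209a was at 888 and 296 CPM, Mgl2 at 231 and 572, H2-DMb2 at 171 and 405, and Flt3, a receptor for a dendritic cell growth factor, at 161 and 88.6. Neutrophil markers summed to 16.3 CPM in the control cells, where 4 of 8 were at 0, and to 73.7 CPM in the MC38 cells, where 1 was. The median cell had none in either library. Mast cell or basophil markers summed to 2.58 and 1.49 CPM, with 4 and 6 of 8 at 0, so both remained near 0 in the class. Classical monocyte markers were at 1092 and 841 CPM, with 1 and 0 of 8 at 0 and cell medians of 983 and 572, and macrophage markers at 227 and 403 CPM, with cell medians of 92.3 and 116. Hepatocyte markers were at 264 and 683 CPM, with cell medians of 208 and 410. No macrophage or hepatocyte marker was at 0. T cell markers were at 260 CPM in the control cells, with a cell median of 0 and a UMI in 28.7% of cells. A cluster named by T cell markers took in 10.1% of cDC2-like cells from control mice, against 0.595% from MC38 mice. The part of the monocyte, macrophage and hepatocyte values in the Ifitm1 difference was not tested beyond the subsets that follow. The part of the T cell markers was not tested. A stricter gate, which left out cells near the limits, kept 156 and 138 of the cDC2-like cells and gave a log2 fold of 7.29.

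Ifitm1 was also read in subsets of the cDC2-like cells, as a description. Among cells without a neutrophil marker UMI it was at 18.4 CPM in 163 control and 2976 CPM in 101 MC38 cells. Among cells without a macrophage marker UMI it was at 12.9 and 3604 CPM. Cells with a UMI of the lectin Mgl2 were at 9.81 and 3100 CPM and cells without one at 24.5 and 2635 CPM. Cells with a cell cycle UMI were at 12.8 and 2636 CPM and those without at 23.3 and 3227 CPM. Cells with a mitochondrial share of 5% or less were at 33.4 and 3572 CPM and those above it at 13.1 and 2222 CPM. The order of the libraries was the same in all of these.

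**Figure D4:**
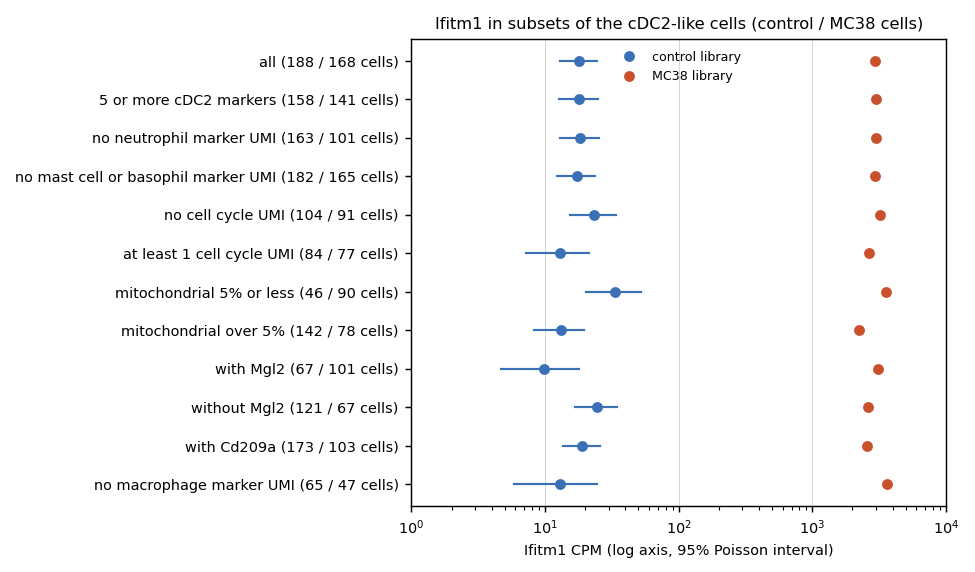
Ifitm1 level (x axis, CPM on a log axis, with 95% Poisson intervals) in all cDC2-like cells and in subsets with at least 20 cells in both libraries (y axis, with the number of control and MC38 cells), control in blue and MC38 in red. Control points lie between 9.81 and 33.4 CPM and MC38 points between 2222 and 3604 CPM.

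The other members were high in cDC2-like cells of both libraries. Ifitm2 was at 810.0 CPM (774 to 847) and 1370.1 CPM (1319 to 1422), with UMIs in 96.8% and 97.0% of cells, a log2 fold of 0.76 that did not reach 2-fold. Ifitm3, the endosomal member, was at 2526 CPM (2462 to 2592) and 2815 CPM (2742 to 2889), in 98.9% and 98.8% of cells, a log2 fold of 0.16 (0.10 to 0.21). With classes from clusters it was -0.09 (-0.13 to -0.04), so its direction depended on how the class was drawn. Ifitm6 was at 192 CPM (174 to 210) and 215 CPM (195 to 236), a log2 fold of 0.17 (-0.03 to 0.36) with an interval that includes no difference. As a share of the family's UMIs in cDC2-like cells, counted per molecule and not per length, Ifitm1 went from 0.509% to 39.95%, Ifitm3 from 71.2% to 38.4% and Ifitm2 from 22.8% to 18.7%. At 1000 UMIs per cell, 71.3% of the 167 MC38 and 2.66% of the 188 control cells held both Ifitm1 and Ifitm3.

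In cDC1-like cells, the cross-presenting dendritic type, Ifitm1 had 10 UMIs in 155 control cells (4.58 CPM, 2.19 to 8.42) and 1112 in 127 MC38 cells (601 CPM, 566 to 637). The log2 fold was 7.04 (6.15 to 8.10), the second of 10023 genes by the same ranking. The share of cells with a UMI was 5.16% and 40.2%, and at 1000 UMIs per cell 0.654% and 19.7%. Here the UMIs were concentrated: the top 13 MC38 cells held 80.7% of them and 1 cell held 325. Without the cell of most UMIs in each library the log2 fold was 7.06, and with a mitochondrial limit of 5% it was 5.32. Ifitm2 was at 179 and 615 CPM (log2 fold 1.78, 1.61 to 1.95), Ifitm3 at 402 and 852 (1.08, 0.96 to 1.21) and Ifitm6 at 11.9 and 71.3 (2.58, 1.97 to 3.25). The Ifitm3 fold fell below 2 under 5 alternatives, down to 0.78 with a mitochondrial limit of 5%. Macrophage markers in cDC1-like cells were at 153 and 668 CPM, with 0 and 1 of 8 at 0, and neutrophil markers at 11.9 and 55.7 CPM, with 2 of 8 at 0 in each library. Ifitm1 in cells without a neutrophil marker UMI was at 4.27 and 691 CPM, and in the 68 control and 28 MC38 cells without a macrophage marker UMI at 6.999 and 966 CPM. In cells without a neutrophil marker UMI, Ifitm2 was at 169 and 672 CPM, Ifitm3 at 416 and 1028 and Ifitm6 at 12.8 and 93.6. In cells without a macrophage marker UMI, Ifitm2 was at 263 and 644 CPM and Ifitm6 at 18.2 and 87.1. Ifitm3 was there at 655 and 905 CPM, less than 2-fold apart. The part of these markers in the differences was not tested beyond these subsets. In the 52 control and 35 MC38 cells with 2 or fewer cDC2 markers Ifitm1 was at 11.02 and 451 CPM. Ifitm2 was there at 256 and 601 CPM and Ifitm6 at 30.3 and 115 CPM. Ifitm3 went the other way, at 807 CPM (718 to 905) and 666 CPM (558 to 789), with intervals that overlap.

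Among mature dendritic-like cells, which have taken on the migratory Ccr7 program, no Ifitm1 UMI was found in 36 control cells, where 3 counts of the class total would be 12.2 CPM, and 712 were found in 218 MC38 cells, or 430 CPM (399 to 463). The difference was at least 35.4-fold against 3 counts of the control class. Ifitm2 was at 207 and 405 CPM and Ifitm3 at 138 and 273 CPM there. In pDC-like cells Ifitm1 was low, with 10 and 29 UMIs (2.99 and 21.5 CPM), a log2 fold of 2.85 (1.77 to 4.05) that was 0.23 when doublet calls were kept. Ifitm2, Ifitm3 and Ifitm6 were not called in pDC-like cells.

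The monocyte classes sat largely in different clusters in the 2 libraries. Unlike cells and a difference between the libraries cannot be told apart there. Of the classical monocyte-like cells, 67.3% of control and 0.967% of MC38 cells lay in cluster 0, and 1.11% and 40.6% in cluster 22 and 0.738% and 36.4% in cluster 27, all named by classical monocyte markers. Neutrophil markers in this class were at 148 and 6961 CPM, with 3 and 0 of 8 at 0 and cell medians of 107 and 1487. Macrophage markers were at 1617 and 4561 CPM, with none at 0, and their part in the differences was not tested. The part of the neutrophil markers was not tested beyond the subset that follows. In classical monocyte-like cells Ifitm3 was at 4830.3 CPM (4771 to 4890) in 542 control and 2327 CPM (2312 to 2344) in 2896 MC38 cells, a log2 fold of -1.05 (-1.07 to -1.03). Ifitm6 was at 582 and 274 CPM (-1.09, -1.15 to -1.03), and Ifitm2 at 1237 and 1118 CPM (-0.15, -0.18 to -0.11). Ifitm1 went the other way, from 24.7 CPM (20.6 to 29.3) to 153 CPM (149 to 157), a log2 fold of 2.63 (2.38 to 2.89). Ifitm3 was found in 99.8% and 99.7% of these cells, so its difference lay in the level per cell, with medians of 4872 and 2245 CPM. Ifitm1 was found in 9.59% and 35.3% of them. Without neutrophil marker UMIs, in 187 and 167 cells, Ifitm1 was at 43.7 and 608 CPM. Those cells had Ifitm3 at 4992 and 2663 CPM, less than 2-fold apart. Ifitm6 was there at 559 and 223 CPM and Ifitm2 at 1237 and 1131 CPM. The Ifitm3 fold reached -1.16 with a mitochondrial limit of 5%. With that limit the Ifitm6 fold was -0.998, just short of a 2-fold difference.

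The gate for nonclassical monocytes, the patrolling type, took cells that differed in cluster and in marker levels between the libraries. Of these, 112 of 172 control and 6 of 75 MC38 cells lay in the cluster named by nonclassical monocyte markers, and 1.74% and 77.3% in a cluster named by macrophage markers. Their own markers were at 3406 and 1753 CPM, with none at 0, and classical monocyte markers at 1860 and 3732 CPM, with none at 0. Macrophage markers were at 2885 and 5126 CPM, with 0 and 1 of 8 at 0, and neutrophil markers at 3465 and 180 CPM, with 1 at 0 in each. The part of these in the differences was not tested. Ifitm6 was at 446 and 214 CPM, with a log2 fold of -1.06 (-1.32 to -0.81). It ran from -2.68 with cells thinned to 1000 UMIs to -0.85 with the stricter gate. Ifitm3 was at 3981 and 2904 CPM (-0.45) and Ifitm2 at 986 and 1017 CPM (0.05). Ifitm1 was at 31.1 and 59.4 CPM (0.93, 0.32 to 1.54), and without the cell of most UMIs in each library at a log2 fold of 2.06 (1.21 to 2.94). Over the alternatives the Ifitm1 fold ran from 0.48 to 2.06. At 1000 UMIs per cell, 2.33% of control and 0 of the 75 MC38 cells had an Ifitm1 UMI. Macrophage-like cells held no Ifitm1 UMI in 33 control cells, where 3 counts of the class total would be 16.7 CPM, and 758 in 704 MC38 cells, or 89.0 CPM. Their Ifitm3 levels were 1332 and 1432 CPM. Of the macrophage-like cells, 72.7% of control and 23.0% of MC38 cells lay in cluster 20, named by Kupffer markers. In clusters 26 and 31, named by macrophage markers, lay 3.03% and 35.4%, and 0 and 9.09%. Unlike cells and a difference between the libraries cannot be told apart in this class. In Kupffer-like cells, the resident macrophages of liver sinusoids, Ifitm3 was at 2475 CPM in 25 control and 1288 CPM in 58 MC38 cells, and Ifitm2 at 753 and 703 CPM. Kupffer-like cells left out by the mitochondrial limit were closer in Ifitm3. Between 10 and 30% it was at 1650 CPM in 85 control and 1429 CPM in 102 MC38 cells. Above 30% it was at 1166 CPM in 165 and 879 CPM in 31 cells.

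Mast cell or basophil-like cells were the class with the highest Ifitm1 in both libraries. Ifitm1 was at 6031 CPM (5786 to 6284) in 98 control and 13964 CPM (13658 to 14274) in 164 MC38 cells, found in 98.0% and 100% of cells. The log2 fold was 1.21 (1.14 to 1.28), and over the alternatives it ran from 1.21 to 1.42. Cell medians were 5284 and 13742 CPM. Cells with the basophil protease Mcpt8 were at 5879 and 13995 CPM. Ifitm2 was at 606 and 2619 CPM, with a log2 fold of 2.11 (1.91 to 2.32), and Ifitm3 at 220 and 424 CPM (0.95, 0.58 to 1.33). The Ifitm3 fold was -0.02 with doublet calls kept, so its direction rested on their removal. Ifitm6 had 3 and 43 UMIs, a ratio of 9.53 (log2 fold 3.25, 1.61 to 5.59), with 18 of the 43 in 1 cell. Neutrophil markers were at 611 and 637 CPM in this class, with 3 and 1 of 8 at 0, and macrophage markers at 148 and 542 CPM, with 3 and 0 of 8 at 0. Their part in these differences was not tested.

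Neutrophil-like cells were too few in the control library to compare, with 15 cells against 244. Ifitm1 had 13 UMIs in 4 of 15 control cells (167 CPM, 89.0 to 286) and 2751 UMIs in MC38 cells (3713 CPM, 3576 to 3855), there in 82.8% of cells. All 8 control cells with the neutrophil surface marker Ly6g lacked an Ifitm1 UMI, and the 83 MC38 cells with Ly6g were at 3267 CPM. The 7 control cells without Ly6g were at 809 CPM (431 to 1383) and the 161 MC38 cells at 4061 CPM. Control neutrophil-like cells left out by the mitochondrial limit were higher than the 15 kept, at 926 CPM in the 30 cells between 10 and 30% and 803 CPM in the 18 cells above. Ifitm2 was at 951 and 2301 CPM and Ifitm6 at 1157 (930 to 1422) and 993 CPM (923 to 1068), whose intervals overlap. Neutrophil-like cells thus had the highest Ifitm6 of the classes with at least 50 cells in the MC38 library.

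In T cell-like cells Ifitm1 lay in few cells. It was at 154 CPM (145 to 164) in 705 control and 337 CPM (318 to 357) in 420 MC38 cells, with UMIs in 5.82% and 14.8%, a log2 fold of 1.13 (1.005 to 1.25). With a mitochondrial limit of 5% the fold was -0.40 (-0.57 to -0.22), so the direction rested on that limit. It was 2.05 with no mitochondrial limit and 2.63 with classes from clusters. In the control library 811 of the 985 UMIs came from 22 of 196 cells with Cd8 and no Cd4 UMI. Those cells were at 418 and 370 CPM, cells with Cd4 and no Cd8 at 78.1 and 538 CPM, and cells with neither at 2.62 and 122 CPM. Ifitm2 was at 148 and 282 CPM (0.93, 0.80 to 1.06) and Ifitm3 at 366 and 369 CPM (0.01, -0.09 to 0.11). In NK or ILC1-like cells Ifitm1 was at 64.4 and 8.98 CPM, but 108 of the 114 control UMIs came from 1 cell. Without the cell of most UMIs in each library the levels were 3.46 and 7.22 CPM. In B cell-like cells 8 of the 9 control Ifitm6 UMIs came from 1 cell.

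Among classes with at least 50 cells, the order of levels in the control library began with the same 3 classes for Ifitm2, Ifitm3 and Ifitm6, namely classical monocyte-like, nonclassical monocyte-like and cDC2-like cells. The 15 control neutrophil-like cells were above these for Ifitm6, and the 8 endothelial-like cells for Ifitm2. For Ifitm1 the control order began with mast cell or basophil-like cells, then T cell-like cells, then the NK or ILC1-like class, whose place rests on 1 cell (3.46 CPM without it). After these the intervals of neighbours overlapped from nonclassical monocyte-like (31.1 CPM) through classical monocyte-like and cDC2-like cells (18.0 CPM) down to pDC-like cells (2.99 CPM). In the MC38 library it began with mast cell or basophil-like, neutrophil-like (3713 CPM), cDC2-like (2927 CPM) and cDC1-like cells (601 CPM), each apart from its neighbour. Ifitm3 was highest in control classical monocyte-like cells, followed by nonclassical monocyte-like and cDC2-like cells. In the MC38 library nonclassical monocyte-like (2904 CPM) and cDC2-like cells (2815 CPM) led with overlapping intervals, and classical monocyte-like cells (2327 CPM) came next. For Ifitm6 the MC38 order began with neutrophil-like and classical monocyte-like cells, and cDC2-like (215 CPM) and nonclassical monocyte-like cells (214 CPM) could not be told apart.

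Hepatocyte-like cells, of which 88 control and 4058 MC38 cells were kept, also held the family. They lay in separate clusters, with 96.6% of control and 0 of the MC38 cells in cluster 8, and 50.8%, 19.1% and 27.6% of MC38 cells in clusters 21, 24 and 30. Library and cluster cannot be told apart in this class. Neutrophil markers were at 6.65 and 542 CPM in it, with 7 and 1 of 8 at 0, and their part was not tested. Ifitm3 was at 738 and 887 CPM (log2 fold 0.27, with an interval that includes no difference) and Ifitm2 at 206 and 615 CPM (1.58, 1.07 to 2.14). Ifitm1 had 1 UMI in the control and 167 in the MC38 cells (6.65 and 22.6 CPM), a ratio of 3.40 with an interval that includes no difference. Their median depth was 1216 and 1375 UMIs, the shallowest of the classes compared. The few endothelial-like cells, 8 and 29, had Ifitm2 at 2040 and 1597 CPM and Ifitm3 at 2280 and 1273 CPM.

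Type I interferon response genes were called lower more often than higher in most classes. How this list relates to Ifitm1 was not tested. Of 26 type I interferon response genes tested in cDC2-like cells, 0 were higher and 14 lower in the MC38 library, with a median log2 fold of -1.51 against -0.02 for all genes tested and with 4.52% of all genes called lower. Ifi27l2a went from 642 to 173 CPM, the antiviral enzyme Oas3 from 46.4 to 5.97 CPM and Rsad2, which encodes viperin, from 20.2 to 2.49 CPM. In classical monocyte-like cells 26 of 27 were lower, against 7.01% of all genes, with a median of -2.64, and Rsad2 was at 80.1 and 3.73 CPM. In cDC1-like cells 14 of 24 were lower (median -1.23), against 3.66% of all genes, and in T cell-like cells 17 of 27 (-1.11), against 2.5%. In mast cell or basophil-like cells 1 of 10 was higher and 1 lower (0.28), against 4.82% and 4.25% of genes. In pDC-like cells 12 of 24 were lower (-1.24), against 2.32%, and in B cell-like cells 2 of 22 (-0.44), against 3.2%. In the classes where Ifitm1 was not called higher, 12 of 24 were lower in nonclassical monocyte-like (-1.24), 10 of 22 in hepatocyte-like (-2.20) and 6 of 21 in NK or ILC1-like cells (-0.71), against 5.2%, 5.1% and 2.58% of genes. Ifitm3 in classical monocyte-like cells was lower, as was that list.

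Genes that answer to interferon gamma were mixed. In cDC2-like cells 3 of 16 were higher and 1 lower, against 5.23% and 4.52% of all genes, with a median of 0.19. The same shares stand beside the next counts in cDC2-like cells. The GTPase Iigp1 was at 8.16 and 36.3 CPM (log2 fold 2.15), Cd274, which encodes the checkpoint ligand PD-L1, at 11.2 and 40.8 CPM (1.87) and the chemokine Cxcl9 at 60.2 and 150.4 CPM (1.32). Cxcl10 was lower, at 52.0 and 19.4 CPM (-1.42). Of 9 genes of IL-6 and STAT3 feedback tested, 1 was higher, the inhibitor Socs3, at 29.2 and 88.6 CPM (1.60), and 0 were lower, with a median of 0.02. Of 14 interferon receptor and signaling genes 0 were higher and 1 lower, the transcription factor Irf7, at 76.9 and 25.4 CPM (-1.60), with a median of -0.14.

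**Figure D5:**
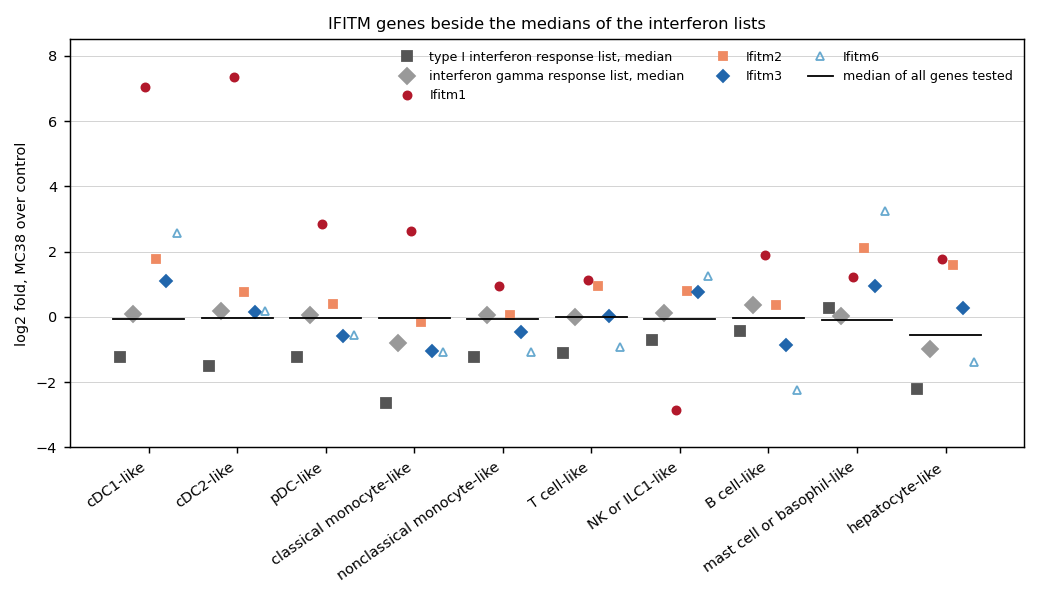
Log2 fold, MC38 over control (y axis), of the 4 IFITM genes beside the medians of the type I interferon and interferon gamma response lists (grey) and of all genes tested (black lines) in the 10 classes compared (x axis). In cDC2-like cells the type I list median is -1.51 and Ifitm1 7.34, and in classical monocyte-like cells the list median is -2.64 and Ifitm3 -1.05.

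Genes tied to IFITM proteins by known function gave few calls. Of 9 partners and modifiers tested in cDC2-like cells 0 were higher and 2 lower, against 5.23% and 4.52% of all genes, with a median log2 fold of -0.12. These were Nedd4, a ubiquitin ligase known to act on IFITM3, at 43.0 and 9.46 CPM (-2.18), and the tetraspanin Cd81, a partner of human IFITM1, at 15.5 and 6.97 CPM (-1.15). Nedd4 was also lower in cDC1-like (-1.71), pDC-like (-1.33), T cell-like (-1.12) and mast cell or basophil-like cells (-1.86). Of the other family members, Ifitm5 had 1 UMI in each library in cDC2-like cells. Ifitm10 had 10 and 0 UMIs, a level at least 2.88-fold lower in the MC38 cells against 3 counts of the class.

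The genes beside the family on chromosome 7 moved little in cDC2-like cells. Pkp3, which encodes a desmosome protein, was at 57.6 and 82.1 CPM (log2 fold 0.51, 0.17 to 0.85) and Sigirr, an inhibitory receptor of the interleukin-1 family, at 13.3 and 22.9 CPM (0.78, 0.09 to 1.49). Pgghg, on the other side, was at 13.3 and 13.9 CPM (0.07, -0.73 to 0.85). None of these passed a fold of 2.

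Patterns were compared over 25 points, each a class in a library with at least 50 cells, by Pearson's r of log2(CPM + 10) among 6729 genes. Points of both libraries and of related classes are not independent, so r is a description. Ifitm2 and Ifitm3 (0.84) and Ifitm3 and Ifitm6 (0.83) were much alike, while Ifitm1 had r of 0.61 with Ifitm2 and 0.16 with Ifitm3. The genes most like Ifitm1 were Ier3 (0.83), Lilr4b (0.80), Siglecf (0.77), Flot1 (0.77) and Osm (0.77). Of these, Ier3, Lilr4b and Osm were highest in mast cell or basophil-like cells of the MC38 library. Lilr4b was at 5.59 and 33.4 CPM in control and MC38 cDC2-like cells, and Osm, which encodes oncostatin M, at 9.02 and 3.48 CPM. The genes most like Ifitm3 were Ltbr (0.91) and Pid1 (0.87), those most like Ifitm6 Rara (0.90) and 1600010M07Rik (0.89), and those most like Ifitm2 Ltb4r1 (0.83) and Nlrp3 (0.82).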

How the data were processed

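The deposited matrices hold UMI counts per gene and barcode, not normalized, from a 5′ droplet kit per the labels' protocols. Hepatocytes were depleted and mononuclear cells taken by density centrifugation before loading, per the labels' protocols. Per the submitters' processing notes, Cell Ranger 2.2, bcl2fastq and STAR, the genome build GRCm38.p6, Seurat 2.3.4 and R 3.6.0 are listed, without roles, and the matrix headers name software version 3.0.2.

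Barcodes under 200 genes or over 10% mitochondrial UMIs were left out, and 593 control and 1559 MC38 doublet calls of scrublet (0.008 per 1000 barcodes) were removed. Each cell was scored for 18 classes by 8 markers, as the mean of log counts per 10000 UMIs over their 75th percentile, with a ceiling of 1. A class needed at least 3 markers with a UMI and a lead of 0.1 over the next class. The stricter gate needed 4 and 0.15. The gate gave a class to 3037 control and 10626 MC38 cells. Its thresholds were set with the data in view, and class names are rebuilt, not the authors'. Clusters are Leiden clusters of both libraries together, made without the member genes and named by the same markers. Kept control cells had a median of 7774 UMIs and kept MC38 cells 4095.

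UMIs were summed per class and library and divided by the class total. Ratios have exact conditional intervals for Poisson counts, levels exact Poisson intervals and shares exact Clopper-Pearson intervals. The code was tested on simulated data. The members are named in every class, with the 5 genes most like each among those reaching 50 CPM. List genes were named by the interval end nearest no difference, up to 3 in each direction in cDC2-like cells and 1 elsewhere. Trarg1 and Mx2 are not among the symbols of the files. The members and lists were chosen with earlier results of these data known. Alternatives changed the mitochondrial limit, gene minimum, doublet removal, depth, averaging, scaling and gate. Tools were Python 3.11.15, numpy 2.4.6, scipy 1.17.1, pandas 2.3.3, scanpy 1.11.5, igraph 0.11.9, Biopython 1.88 and matplotlib 3.10.9.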

Additional observations from a re-analysis of the deposited data

Results flagged for a closer look

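Within each of 3 members the libraries differed in opposite directions in different classes, and the difference between classes was not tested. Ifitm1 had a log2 fold of 7.34 in cDC2-like cells, the value that chose the family, and -2.84 in NK or ILC1-like cells, where 108 of 114 control UMIs came from 1 cell. Ifitm3 had 1.08 in cDC1-like and -1.05 in classical monocyte-like cells, a class that lies in different clusters in the libraries. In cDC1-like cells with 2 or fewer cDC2 markers Ifitm3 was lower in the MC38 library, with overlapping intervals. Ifitm6 had 3.25 in mast cell or basophil-like cells, from 3 and 43 UMIs, and -2.22 in B cell-like cells, where 8 of 9 control UMIs came from 1 cell.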

How the results depend on the processing

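Of the recomputed cDC2 folds, 41 moved by less than their counting interval allows, 14 moved further and 1 turned. A fold was counted as turned only where its main interval left out no difference. Sign changes of other folds, such as that of Ifitm6 below, are counted among those that moved. The Ifitm1 log2 fold in cDC2-like cells ran from 6.66 to 8.30. It was 6.72 with cells thinned to 1000 UMIs and 6.66 with Leiden clusters. In subsets chosen after seeing the data it was 8.13 without a macrophage marker UMI, 8.30 with an Mgl2 UMI and 6.75 without one. Ifitm2 was at 0.89 with a mitochondrial limit of 30% and 0.89 with none, 0.66 thinned and 0.64 with clusters. Ifitm3 was at 0.30 with the 30% limit, 0.31 with none, 0.088 thinned, 0.21 without a neutrophil marker UMI and -0.086 with clusters. Ifitm6 was at -0.11 thinned. The share of cDC2-like cells with an Ifitm1 UMI was 2.66% and 78.4% thinned, and 86.0% in MC38 cells with clusters.

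In other classes 272 folds moved little, 86 moved further and 13 turned, by the same rule. Ifitm3 in pDC-like cells was at 0.18 thinned. With a mitochondrial limit of 5%, Ifitm1 in T cell-like cells was at -0.40 and Ifitm2 in NK or ILC1-like cells at -0.53. Ifitm1 in NK or ILC1-like cells was at 0.16 as a mean over cells and 1.06 without the cell of most UMIs in each library. Ifitm3 in B cell-like cells was at 0.18 with the 30% limit, 0.23 with none, 1.25 thinned, 0.95 with the stricter gate and 0.95 without the top cells. Ifitm6 there was at 0.71 with the stricter gate and 0.71 without the top cells. Ifitm3 in mast cell or basophil-like cells was at -0.023 with doublet calls kept. Leaving out the cell of most UMIs was chosen after seeing the data, and the causes of these moves were not tested.

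Leaving out cDC2-like cells with a neutrophil or classical monocyte marker UMI left 3 control cells and gave no value, as did settings that left under 20 cells of a class. No paired analysis was possible because each group is 1 library of pooled mice. Low counts limit Ifitm1 in control dendritic cells and Ifitm6 in lymphoid classes.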
